A study of Mus musculus with 12 samples.

Results

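The cartilage programme was followed through 10 of its genes that do not encode collagens, across all 12 libraries of the series: the transcription factor genes Sox9, Sox5 and Sox6, the signal gene Ihh, and the matrix genes Acan, Hapln1, Matn2, Matn4, Comp and Snorc. They were chosen by name as 10 rows of a count table of 23358 rows, and Snorc stands in that table under its older symbol 3110079O15Rik. Of the 10 genes, 7 reached at least 1 CPM (counts scaled to library size) in at least 2 libraries and were tested among 12056 such genes. Acan, Snorc and Ihh did not, and are given as read pairs.

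In growth plate cartilage SOX9 starts and maintains the chondrocyte programme, and SOX5 and SOX6, which have no transactivation domain of their own, help it to bind and activate cartilage genes. The matrix they serve is built on aggrecan, the proteoglycan encoded by Acan, which link protein, the product of Hapln1, fastens to hyaluronan. Matrilins and COMP (cartilage oligomeric matrix protein) connect proteoglycans and collagen fibrils, SNORC is a small transmembrane proteoglycan of chondrocytes, and Indian hedgehog, the product of Ihh, is released by chondrocytes as they become hypertrophic.

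The cells were MC3T3 sc4, a subclone of a mouse calvarial pre-osteoblast line of C57BL/6 origin, at passage 12. They were held in osteogenic medium, which contains ascorbic acid and β-glycerol phosphate, for 1 or 6 days. On each day there was 1 library with GSK126 (5 µM) alone, 1 with GSK126 and each of 2 doses, 10 and 50 ng/ml, of bone morphogenetic protein 2 (BMP2), 1 each with BMP2 at those doses without GSK126, and 1 with vehicle. GSK126 inhibits EZH2, the enzyme that places the repressive methyl marks of Polycomb on histone H3. With 1 library per condition no single difference has a replicate check, so GSK126 was tested over the 3 doses, BMP2 over both GSK126 levels, and day over the 6 treatments, in 1 fit of all 12 libraries; p-values measure only the spread that this fit leaves. Each log2 fold change is followed by its standard error. Where groups of libraries are said not to overlap, the share of all genes with such groups was not counted. Such statements only describe the values. Tests were edgeR's quasi-likelihood F tests, adjusted by Benjamini and Hochberg's method over all 12056 genes, with a threshold of 0.05.

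Libraries held 74301112 to 113744802 counts, and 3 read pairs, taken as the floor, were worth 0.0486 to 0.0923 CPM. The 7 osteoblast markers were all tested, with a summed level of 9802.62 to 23529.5 RPKM on day 6 and 7071.84 to 8993.16 RPKM on day 1. Of 8 chondrocyte markers, among them Sox9, Hapln1 and Acan, the summed level was 15.8 to 176 RPKM on day 6 and 387 to 714 RPKM on day 1, of which the type II collagen gene Col2a1 supplied 9.94 to 167 RPKM on day 6 and 378 to 699 RPKM on day 1, while Acan had at most 2 read pairs. The 4 adipocyte markers had at most 3 read pairs in any library. Of 3 tendon markers, with a summed level of 12.8 to 26.1 RPKM on day 6 and 10.7 to 17.4 RPKM on day 1, Scx had 500 to 1786 and Mkx 377 to 863 read pairs, and Tnmd at most 1. Rn45s, a precursor of ribosomal RNA, had a share of 13.1% to 21.66% in libraries of day 6 and of 8.96% to 11.71% in libraries of day 1. Its share was 13.1% to 14.47% with GSK126 on day 6, against 15.4% to 21.66% without. Its part in the results was not tested. In bulk RNA, fewer cells of a type and less RNA per cell cannot be told apart.

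Per gene length, levels spanned a wide range. By mean deposited RPKM over 12 libraries the order was Matn2 (17.8 RPKM), Sox9 (7.79), Matn4 (5.16), Sox6 (3.74), Hapln1 (1.43), Sox5 (0.594), Comp (0.39), Ihh (0.0559), Snorc (0.0426) and Acan (0.000384). The ranges of most neighbours overlapped: Matn2 ran from 8.99 to 41.8 RPKM and Sox9 from 3.69 to 13.4 RPKM. Matn4 and Hapln1 varied most among the 7 tested genes, Matn4 between 0.324 and 17.3 RPKM and Hapln1 between 0.0909 and 4.33 RPKM. Sox6 varied least, between 2.6 and 6.23 RPKM. The core proteoglycan gene Acan was at or under the floor in every library, while its link protein gene Hapln1 was measurable in every library, at 22 to 1451 read pairs.

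**Figure D1:**
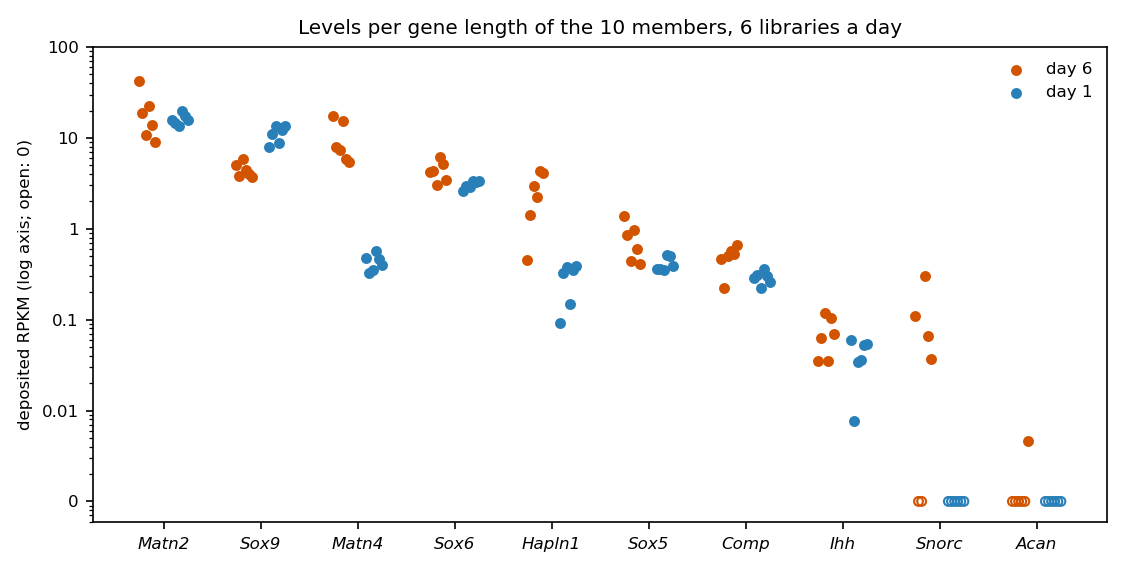
Deposited RPKM of the 10 genes in order of their mean, with 1 point per library, 6 libraries each on day 6 (orange) and day 1 (blue); the vertical axis is logarithmic and open points at its foot are values of 0. Matn4 and Hapln1 lie higher on day 6, Sox9 lies lower, and Acan has 1 library above 0.

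Hapln1 and Matn4 had the largest changes between days and opposite changes with BMP2, so the 250 bases before their starts are printed, from RefSeq (GRCm38.p6), 5′ to 3′ on the gene's strand. Promoters were found in that table for 6 of the 10 genes, and for 3 of them, Hapln1, Matn4 and Sox6, a promoter begins where the row of the count table begins. Capitals mark matches on either strand to ACAAT, a core that SOX factors bind, or to TGTGGT, a core that RUNX factors bind; these matches do not overlap.
Hapln1, chr13:89540386-89540635, plus strand: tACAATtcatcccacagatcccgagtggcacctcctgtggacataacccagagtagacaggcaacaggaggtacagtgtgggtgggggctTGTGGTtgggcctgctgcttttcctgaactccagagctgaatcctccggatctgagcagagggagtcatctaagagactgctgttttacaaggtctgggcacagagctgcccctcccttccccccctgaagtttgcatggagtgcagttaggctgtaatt
Matn4, chr2:164405161-164405410, minus strand: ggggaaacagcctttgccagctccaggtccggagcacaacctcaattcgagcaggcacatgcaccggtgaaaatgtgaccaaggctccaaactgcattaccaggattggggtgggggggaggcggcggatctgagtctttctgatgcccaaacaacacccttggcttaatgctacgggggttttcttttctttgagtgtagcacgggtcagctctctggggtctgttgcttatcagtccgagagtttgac
The Hapln1 stretch held 1 ACAAT, 1 TGTGGT and 2 CpG dinucleotides, and 18.8% of the 32841 promoters in the table held fewer CpG. The Matn4 stretch held neither motif and 8 CpG (57.0% held fewer, median 6). Of all promoters of this length 27.7% held ACAAT and 14.0% held TGTGGT, so a match is no more than a description. GGCGCC, a motif that SMAD proteins bind, was in neither stretch and in 9.59% of all promoters.

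Between day 6 and day 1 the 7 tested genes passed the threshold, 6 higher and 1 lower; Comp, 1 of the 6, reached 1 CPM in 5 libraries of day 6 and 1 of day 1, and so entered the test through the day on which it was higher. Of all tested genes 78.0% passed, 40.5% higher and 37.5% lower, so passing was not unusual. With GSK126 on day 6, Hapln1 passed as higher and Matn2, Matn4 and Sox5 passed as lower, against 28.3% of all genes, 14.3% higher and 14.0% lower. With BMP2 on day 6, Hapln1 passed as higher and Matn2, Matn4 and Sox5 as lower, against 28.7% of all genes, 13.3% higher and 15.5% lower; both comparisons use the same 6 libraries of day 6. On day 1 neither agent moved any of the 7 past it, with a background of 0.0% for GSK126 and 3.66% for BMP2 (1.8% higher, 1.86% lower). At an unadjusted p under 0.05, 2 of the 7 passed for GSK126 (6.26% of all genes) and 4 for BMP2 (19.7% of all genes) on day 1. Between 50 and 10 ng/ml BMP2, 2 genes were lower on day 6 (11.8% of all genes passed, 6.47% lower and 5.33% higher) and none passed on day 1 (0.0%; 0 of the 7 at an unadjusted p under 0.05 by edgeR, and 398 or 3.3% of all genes). When libraries were scaled by their totals alone, the median gene shifted by -0.18 for day, -0.15 for BMP2 on day 6 and -0.15 for 50 against 10 ng/ml on day 6 on the log2 scale. All calls of the 7 genes kept their direction under that scaling. The split of all calls became 3073 higher and 6234 lower for day (4883 and 4524 in the main test), 1841 and 1183 for GSK126 on day 6 (1726 and 1689), 809 and 3410 for BMP2 on day 6 (1600 and 1863), and 345 and 2105 for 50 against 10 ng/ml on day 6 (643 and 780).

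**Figure D2:**
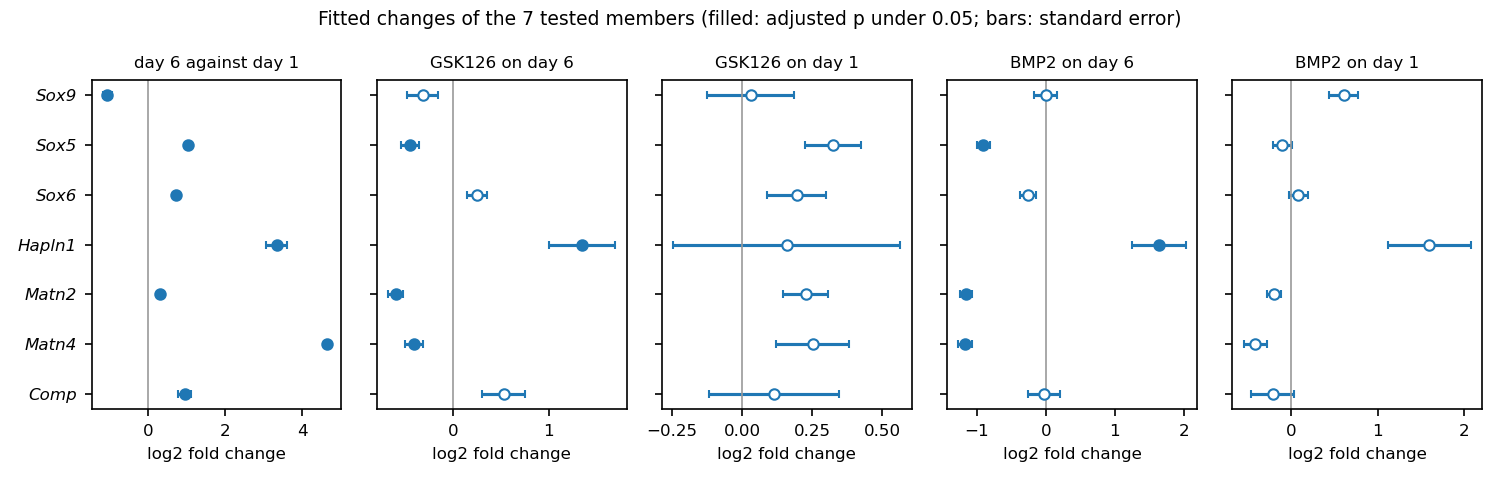
Fitted log2 fold changes with standard errors (horizontal) of the 7 tested genes in 5 comparisons, filled where the adjusted p was under 0.05; each panel has its own scale. Hapln1 lies right of 0 and Sox5, Matn2 and Matn4 left of 0 for both agents on day 6, and no point of either panel of day 1 agents is filled.

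The 3 Sox genes did not move together. Sox9 (chr11:112782210-112787757) fell to 21.1 to 38.9 CPM on day 6, against 38.8 to 65.8 CPM on day 1, a log2 fold change of -1.06 ± 0.11 (adjusted p = 1.0e-04) that was lower in 6 of 6 treatments; the groups overlapped by 1 library of each day. On day 6 Sox9 stood at 23.8, 22.0 and 21.2 CPM with GSK126 at 0, 10 and 50 ng/ml BMP2, and at 26.6, 21.1 and 38.9 CPM without it. The library with 50 ng/ml BMP2 alone stood above the other 5 of that day, and it also had the largest Rn45s share (21.66%), whose part was not tested. On day 1 Sox9 stood at 40.4, 57.2 and 64.1 CPM with GSK126 at the same doses, and at 38.8, 54.4 and 65.8 CPM without it. All 4 libraries with BMP2 on day 1 (54.4 to 65.8 CPM) thus lay above both without (38.8 and 40.4 CPM), and the values with and without GSK126 nearly coincided at each dose.

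The BMP2 difference of Sox9 on day 1, 0.60 ± 0.17 on the log2 scale, did not pass in the fit of both days (adjusted p = 0.12). It passed with DESeq2, in a fit of day 1 alone and on omission of a 50 ng/ml library of day 6 (either one). Over 19 alternatives its adjusted p ran from 1.3e-08 to 0.78 while the log2 fold change stayed between 0.56 and 0.63. On day 6 the BMP2 value was -0.0007 ± 0.17 (adjusted p = 1.0). Without the 50 ng/ml library it was -0.23 and passed (adjusted p = 0.043; 0.043 to 1.0 over 19 alternatives). The BMP2 effect on day 6 minus that on day 1 was -0.61 ± 0.24 (adjusted p = 0.17), and passed without either 50 ng/ml library of day 6, at -0.83 and -0.42 (0.0027 to 0.48 over 18 alternatives). At 50 against 10 ng/ml on day 6 the value was 0.43 ± 0.20 (adjusted p = 0.20), which passed at 0.83 without the 50 ng/ml library with GSK126 (0.0024 to 0.98 over 19 alternatives). GSK126 gave -0.32 ± 0.16 on day 6 (adjusted p = 0.17) and 0.03 ± 0.16 on day 1 (adjusted p = 1.0).

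Sox5 (chr6:143828425-144209568) was low on day 1 and fell with both agents on day 6. On day 6 Sox5 stood at 9.05, 5.85 and 4.15 CPM with GSK126 at 0, 10 and 50 ng/ml BMP2, and at 12.7, 8.51 and 5.23 CPM without it. It was lower at each higher BMP2 dose, at both GSK126 levels, and GSK126 went with a lower value at every dose. On day 1 the values were 4.21, 4.18 and 3.32 CPM with GSK126 and 3.14, 3.08 and 3.09 CPM without, a flat profile in which every library with GSK126 lay above every one without. Over day Sox5 rose by 1.03 ± 0.07 (adjusted p = 1.1e-05), in 6 of 6 treatments. The highest library, vehicle on day 6, held 591 read pairs; the fewest, in the vehicle library of day 1, were 126.

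On day 6 Sox5 changed by -0.90 ± 0.10 with BMP2 (adjusted p = 0.0011; lower in 4 of 4 matched pairs, with no overlap) and by -0.46 ± 0.10 with GSK126 (adjusted p = 0.014; lower in 3 of 3 doses). The value of Sox5 for 50 against 10 ng/ml was -0.60 ± 0.12 (adjusted p = 0.024), and that for BMP2 is a mean over both doses. Day 1 values were 0.32 ± 0.10 for GSK126 (adjusted p = 0.79) and -0.10 ± 0.11 for BMP2 (adjusted p = 0.65). The effects on the 2 days differed, by -0.78 ± 0.14 for GSK126 (adjusted p = 0.016) and -0.80 ± 0.15 for BMP2 (adjusted p = 0.020). The BMP2 call on day 6 held in 19 of 19 alternatives. The GSK126 call was lost in a fit of day 6 alone and without either 10 ng/ml library of day 6 (adjusted p = 0.0028 to 0.076 over 19 alternatives). The dose call was lost in 8 of 19 (0.0046 to 0.18): in the fit of day 6 alone and without the vehicle, the GSK126 or either 10 ng/ml library of day 1, either 10 ng/ml library of day 6, or the 50 ng/ml BMP2 library of day 6 without GSK126.

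Sox6 (chr7:115471344-116038744) was the steadiest of the Sox genes. On day 6 Sox6 stood at 68.0, 58.0 and 40.5 CPM with GSK126 at 0, 10 and 50 ng/ml BMP2, and at 45.9, 49.7 and 41.5 CPM without it. On day 1 it stood at 31.8, 31.7 and 32.9 CPM with GSK126 and at 26.3, 29.5 and 28.6 CPM without. Every library of day 6 lay above every library of day 1, and Sox6 rose by 0.73 ± 0.07 (adjusted p = 8.3e-05). The GSK126 difference on day 6 was 0.25 ± 0.11 (adjusted p = 0.12), higher at 0 and 10 ng/ml and lower at 50 ng/ml. It passed without either 50 ng/ml library of day 6, at 0.40 in both cases, and with scaling by library totals, at 0.29 (adjusted p = 0.016 to 0.36 over 19 alternatives). On day 1 GSK126 gave 0.20 ± 0.11 (adjusted p = 0.81), higher at 3 of 3 doses, which passed in a fit of day 1 alone (0.0072 to 1.0 over 19 alternatives). BMP2 gave -0.26 ± 0.11 on day 6 (adjusted p = 0.13), which passed at -0.48 without the vehicle library and at -0.36 without the 50 ng/ml library, and with scaling by library totals at -0.40 (0.0095 to 0.92 over 19 alternatives). At 50 against 10 ng/ml on day 6 Sox6 stood at -0.38 ± 0.13 (adjusted p = 0.10), lower at both GSK126 levels; this passed in 5 of 19 alternatives (0.012 to 0.39), namely DESeq2, scaling by library totals, and without the vehicle, the GSK126 or the 50 ng/ml library of day 6. The BMP2 effect on day 6 minus day 1 was -0.34 ± 0.16 (adjusted p = 0.24), and passed without vehicle (-0.57) or the 50 ng/ml library of day 6 (-0.44; 0.018 to 0.63 over 18 alternatives); that of GSK126 was 0.06 ± 0.15 (adjusted p = 0.84). Sox5, Sox6 and Hapln1 each overlap annotated transcripts on the opposite strand, and strand was not given for the counting, so reads of those transcripts cannot be told apart.

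Hapln1 (chr13:89540636-89611832), the link protein gene, rose with day, and with BMP2 and GSK126 on day 6. On day 6 Hapln1 stood at 14.4, 28.9 and 28.8 CPM with GSK126 at 0, 10 and 50 ng/ml BMP2, and at 2.91, 9.58 and 24.1 CPM without it. GSK126 alone thus exceeded 10 ng/ml BMP2 alone, and with GSK126 the 10 and 50 ng/ml libraries did not differ beyond their counting intervals. On day 1 Hapln1 stood at 0.849, 2.04 and 2.25 CPM with GSK126 and at 0.547, 1.96 and 2.25 CPM without. BMP2 libraries of day 1 all lay above the libraries without BMP2, and at each dose the library with GSK126 was level with or above the one without. The lowest library held 22 read pairs and the highest 1451.

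Hapln1 rose by 3.34 ± 0.27 on the log2 scale over day (adjusted p = 2.7e-05), a 10.1-fold change that was seen in 6 of 6 treatments with no overlap. With BMP2 on day 6 it rose by 1.64 ± 0.39 (adjusted p = 0.020), in 4 of 4 matched pairs. With GSK126 on day 6 it rose by 1.35 ± 0.35 (adjusted p = 0.028), at 3 of 3 doses. On the log2 scale the difference between libraries was largest without BMP2 and smallest at 50 ng/ml, while in CPM it was largest at 10 ng/ml. The GSK126 call was lost in 10 of 19 alternatives (adjusted p = 0.00088 to 0.14), namely a fit of day 6 alone and without any 1 library of day 1, either 10 ng/ml library of day 6, or the GSK126 library of day 6, and the value ran from 0.91 to 1.93. The BMP2 call was lost in a fit of day 6 alone and without the vehicle or the 10 ng/ml plus GSK126 library of day 6 (adjusted p = 0.00053 to 0.088 over 19 alternatives), where it was 1.04 without vehicle and up to 2.44 without GSK126 alone. The GSK126 by BMP2 interaction on day 6, which asks whether both together depart from the sum of the log2 effects, was -1.53 ± 0.66 (unadjusted p = 0.056, adjusted p = 0.54); it passed, at -2.05 with an adjusted p of 0.014, without the 10 ng/ml BMP2 library (0.014 to 1.0 over 15 alternatives). At 50 against 10 ng/ml on day 6 the value was 0.74 ± 0.41 (adjusted p = 0.27), and 1.502 without the 50 ng/ml library with GSK126, where it passed (0.0083 to 0.70 over 19 alternatives).

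The chondrocyte markers as a list had a summed level on day 6 of 51.1, 102 and 176 RPKM with GSK126 at 0, 10 and 50 ng/ml BMP2, against 15.8, 19.9 and 54.6 RPKM without, and Col2a1 supplied 42.9, 92.4 and 167 RPKM of it with GSK126, against 9.94, 14.5 and 45.2 RPKM without. Of the 8 markers 5 were tested, and Hapln1 and Col2a1 rose with GSK126 on day 6; Col9a1 also passed, but reached 1 CPM only in the 3 libraries with GSK126 of day 6. Osteoblast markers moved too: their summed level on day 6 was 12107.8, 15889.7 and 23529.5 RPKM with GSK126 at 0, 10 and 50 ng/ml BMP2, against 9802.62, 11517.5 and 18753.8 RPKM without. Most of that sum was Col1a1 and Col1a2, at 3299.39 to 11541.5 and 3737.28 to 9498.18 RPKM over the 12 libraries. Neither passed for GSK126 on day 6, at 0.25 ± 0.10 (adjusted p = 0.10) and 0.17 ± 0.10 (adjusted p = 0.24). Of the 7 markers 7 rose with BMP2 (median log2 fold change 1.21) and 3 with GSK126 (median 0.30) on day 6. Of all tested genes 13.3% rose with BMP2 and 14.3% with GSK126 on that day. The 4 markers of hypertrophic chondrocytes, Ihh and Pth1r among them, summed to 128, 222 and 192 RPKM with GSK126 at these doses, against 36.0, 103 and 143 RPKM without. Most of that sum was Pth1r, which ran from 18.9 to 213 RPKM over the 12 libraries. Mmp13 reached at most 9.16 RPKM, Col10a1 0.147 RPKM and Ihh 0.118 RPKM, and Col10a1 had 3 to 25 read pairs on day 6. The part of these markers in the changes of the 7 genes with either agent was not tested. Sums in RPKM were not TMM-normalised, and their differences between libraries were not tested. On day 1 the BMP2 difference of Hapln1 was 1.59 ± 0.48 (adjusted p = 0.14). It passed with DESeq2, in a fit of day 1 alone and without any 1 of 4 libraries of day 6 (vehicle, 50 ng/ml BMP2, GSK126, and 50 ng/ml BMP2 with GSK126), with an adjusted p of 2.4e-05 to 0.82 over 19 alternatives. Its GSK126 value on day 1 was 0.16 ± 0.41 (adjusted p = 0.97), and the GSK126 effect on day 6 minus day 1 was 1.19 ± 0.53 (adjusted p = 0.21), which passed at 1.78 and 1.77 without a 50 ng/ml library of day 6 (0.0071 to 0.46 over 18 alternatives).

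Matn2 and Matn4, the matrilin genes, fell with both agents on day 6. Matn2 (chr15:34306681-34436240) encodes a matrilin that is widespread outside cartilage. On day 6 Matn2 stood at 102, 63.9 and 43.7 CPM with GSK126 at 0, 10 and 50 ng/ml BMP2, and at 187, 88.1 and 61.2 CPM without it. The vehicle library was the highest of all 12 and the library with both agents at 50 ng/ml the lowest. On day 1 Matn2 stood at 78.2, 70.3 and 64.8 CPM with GSK126 and at 66.0, 59.6 and 56.5 CPM without. At each dose the GSK126 library was thus the higher one there and the lower one on day 6, though the groups overlapped on both days.

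On day 6 Matn2 changed by -1.16 ± 0.08 with BMP2 (adjusted p = 0.00023; 4 of 4 lower, no overlap), by -0.61 ± 0.08 with GSK126 (adjusted p = 0.0024; 3 of 3 lower), and by -0.54 ± 0.10 at 50 against 10 ng/ml (adjusted p = 0.018). The BMP2 and GSK126 calls held in 19 of 19 alternatives each, and the dose call in 9 of 19 (adjusted p = 8.0e-05 to 0.17), being lost in a fit of day 6 alone and without any 1 library of day 1, either 10 ng/ml library of day 6, or its 50 ng/ml library without GSK126. On day 1 the values were 0.23 ± 0.08 for GSK126 (adjusted p = 0.79) and -0.20 ± 0.08 for BMP2 (adjusted p = 0.25). Both passed in a fit of day 1 alone, and that of BMP2 also without the vehicle or the GSK126 library of day 6, over ranges of 0.00012 to 1.0 and 1.9e-05 to 0.87 in adjusted p across 19 alternatives each. The effects of the 2 days differed by -0.83 ± 0.11 for GSK126 (adjusted p = 0.0062) and by -0.96 ± 0.12 for BMP2 (adjusted p = 0.0055). Over day Matn2 rose by 0.31 ± 0.06 (adjusted p = 0.0016), but in 4 of 6 treatments only, and with scaling by library totals the value was 0.11 and did not pass (adjusted p = 9.5e-06 to 0.21 over 18 alternatives). An antisense neighbour, 9430069I07Rik, had 0 to 10 read pairs.

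Matn4 (chr2:164389393-164405160) had the largest change with day of the 7 genes. On day 6 Matn4 stood at 50.6, 19.9 and 19.5 CPM with GSK126 at 0, 10 and 50 ng/ml BMP2, and at 56.5, 27.5 and 30.4 CPM without it. Libraries with either BMP2 dose lay below both without BMP2, and the 10 and 50 ng/ml libraries lay close together. On day 1 Matn4 stood at 1.62, 1.36 and 1.17 CPM with GSK126 and at 1.44, 0.982 and 1.07 CPM without. It rose over day by 4.63 ± 0.08 on the log2 scale (adjusted p = 5.3e-08), a 24.8-fold change in 6 of 6 treatments with no overlap. An antisense neighbour, Rbpjl, had 0 to 3 read pairs.

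On day 6 Matn4 changed by -1.17 ± 0.10 with BMP2 (adjusted p = 0.00043; 4 of 4 lower, no overlap; held in 19 of 19 alternatives). With GSK126 it changed by -0.42 ± 0.10 (adjusted p = 0.019; 3 of 3 lower), a call lost in a fit of day 6 alone and without either 10 ng/ml library of day 6 (0.0029 to 0.10 over 19 alternatives). The value for 50 against 10 ng/ml was 0.06 ± 0.12 (adjusted p = 0.76), and -0.09 with scaling by library totals. On day 1 GSK126 gave 0.25 ± 0.13 (adjusted p = 0.81) and BMP2 -0.41 ± 0.14 (adjusted p = 0.17). The effects of the 2 days differed by -0.67 ± 0.16 for GSK126 (adjusted p = 0.045) and by -0.75 ± 0.17 for BMP2 (adjusted p = 0.040). Each of those 2 calls was lost in 10 of 18 alternatives, namely with halved counts, with limma-voom, and without any 1 library of day 1 or either 10 ng/ml library of day 6 (0.0080 to 0.20 and 0.0056 to 0.27). The GSK126 by BMP2 interaction on day 6 was -0.39 ± 0.16 (unadjusted p = 0.047, adjusted p = 0.53).

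The tests of the difference between days had 3 of the 7 genes, Sox5, Matn2 and Matn4, as lower for GSK126, where 10.5% of all genes passed, 6.52% lower and 3.94% higher. For BMP2, Sox5, Matn2 and Matn4 were lower, against 9.14% of all genes, 5.33% lower and 3.82% higher; both tests use all 12 libraries. The interaction of the 2 agents on day 6 called 0 of the 7 and 0.0% of all genes by edgeR, with 1 of the 7 and 1125 (9.33%) of all genes at an unadjusted p under 0.05. DESeq2 called 190 of all genes and 0 of the 7. In this fit the 2 BMP2 doses stood in for replicates, so differences between doses counted as spread. A lack of calls therefore cannot show that the log2 effects of the 2 agents add up.

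**Figure D3:**
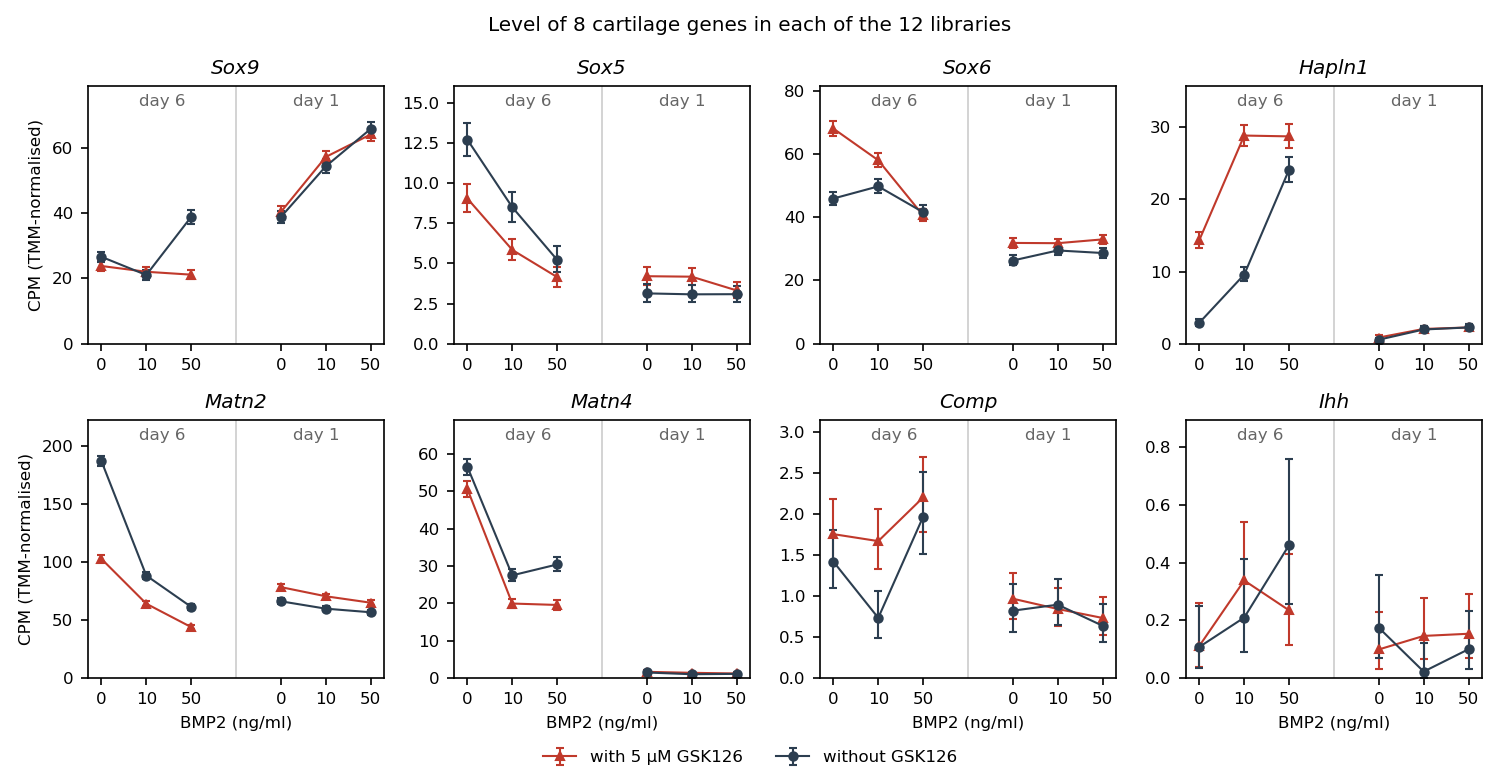
TMM-normalised CPM of 8 genes in each of the 12 libraries, with 95% counting intervals, against BMP2 dose; day 6 is left of day 1 in each panel, with GSK126 in red triangles and without it in dark circles. On day 6 Sox5, Matn2 and Matn4 lie lower at 50 than at 0 ng/ml and Hapln1 lies higher, and on day 1 Sox9 lies higher.

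Comp (chr8:70373548-70382066), a gene of cartilage and tendon matrix, was low in every library, at 28 to 94 read pairs. On day 6 Comp stood at 1.76, 1.67 and 2.20 CPM with GSK126 at 0, 10 and 50 ng/ml BMP2, and at 1.42, 0.733 and 1.97 CPM without it. On day 1 it stood at 0.968, 0.842 and 0.732 CPM with GSK126 and at 0.821, 0.894 and 0.637 CPM without. Comp rose over day by 0.95 ± 0.16 (adjusted p = 0.0012; 0.93 with an adjusted p of 0.0011 under the 0.1 CPM filter), higher in 5 of 6 treatments, the exception being 10 ng/ml BMP2 alone. GSK126 libraries of day 6 were higher at 3 of 3 doses, by 0.53 ± 0.22, which did not pass (adjusted p = 0.12). The value for BMP2 on day 6 was -0.03 ± 0.23 (adjusted p = 0.95), and for 50 against 10 ng/ml it was 0.85 ± 0.27 (adjusted p = 0.091), which passed at 1.39 without the 10 ng/ml plus GSK126 library (0.042 to 0.41 over 19 alternatives).

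The remaining 3 genes lay near the floor. Acan (chr7:79053483-79115099), the aggrecan gene, had 0 read pairs in 11 of the 12 libraries and 2 in that with 50 ng/ml BMP2 and GSK126 on day 6. Snorc (chr1:87470264-87475459) had 8, 2 and 1 read pairs on day 6 with GSK126 at 0, 10 and 50 ng/ml BMP2, against 3, 0 and 0 without it, and 0 in all 6 libraries of day 1. Its 8 pairs with GSK126 alone came to 0.178 CPM (95% exact Poisson interval 0.0768 to 0.350), and the 3 pairs of vehicle to 0.0646 CPM (0.0133 to 0.189); these intervals overlap. The matrilin gene Matn1, a marker and not one of the 10, had 34, 2 and 3 read pairs with GSK126 on day 6 at the same doses, against 6, 0 and 0 without, and 0 or 1 on day 1.

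Ihh (chr1:74945318-74951651) had 5, 17 and 10 read pairs on day 6 with GSK126 at 0, 10 and 50 ng/ml BMP2, and 5, 8 and 15 without it. On day 1 it had 5, 9 and 9 read pairs with GSK126 and 7, 1 and 5 without. All 4 libraries with BMP2 on day 6 (0.209 to 0.461 CPM) lay above both without (0.108 and 0.111 CPM). When the filter was lowered to 0.1 CPM in 2 libraries, Ihh was tested and passed in no comparison; its BMP2 value on day 6 was 1.49 ± 0.68 (adjusted p = 0.16) and its day value 0.95 ± 0.45 (adjusted p = 0.094).

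Genes that work with these 10 were read from 7 lists, which were chosen with earlier results of these data known. Medians below are log2 fold changes over the tested genes of a list, where the median over all 12056 genes was -0.0017 for each agent on day 6. Of all tested genes 28.3% passed for GSK126 on day 6 (14.3% higher, 14.0% lower). For BMP2 on day 6 it was 28.7% (13.3% higher, 15.5% lower). Counts of genes raised or lowered in a list are to be read beside these shares. Of the 6 relatives of the Sox genes 3 were tested. With GSK126 on day 6, Sox13, a relative of Sox5 and Sox6, rose by 0.91 ± 0.19 and Sox4 by 0.30 ± 0.06, and Sox11 fell (-0.41 ± 0.05); the median was 0.30. None of the 3 passed for BMP2 (median 0.10). Sox13 moved opposite to Sox5 with GSK126.

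Among 8 cartilage collagen genes 5 were tested. Apart from Col9a1, which reached 1 CPM only in the libraries with GSK126 of day 6, GSK126 on day 6 raised 3 of the other 4 and lowered 0 (median 1.13): Col2a1 by 2.15 ± 0.17, Col11a2 by 1.69 ± 0.44 and Col11a1 by 0.56 ± 0.11. Col9a1 had 212, 148 and 66 read pairs with GSK126 at 0, 10 and 50 ng/ml BMP2, against 3, 1 and 2 without. BMP2 raised 2, Col11a2 (1.94 ± 0.49) and Col2a1 (1.61 ± 0.18), and lowered Col27a1 (-0.76 ± 0.08), with a median of -0.02 over the 5. Col11a2 also rose over day, by 5.38 ± 0.36 (adjusted p = 9.8e-06), as Hapln1 did. Col2a1 was lower in each library of day 6 (9.94 to 167 RPKM) than in any of day 1 (378 to 699 RPKM), whereas Hapln1 was higher on day 6. Of 18 other cartilage matrix genes 6 were tested. Otor, which encodes otoraplin, reached 1 CPM only in the 2 libraries of day 6 without BMP2, and had 73, 14 and 11 read pairs on day 6 with GSK126 at 0, 10 and 50 ng/ml BMP2, against 255, 27 and 31 without. Of the other 5, Vcan (-0.96 ± 0.07), the gene of the hyaluronan-binding proteoglycan versican, fell with GSK126 on day 6 and none rose (median 0.0039). With BMP2, Vcan fell (-0.52 ± 0.07) and Prelp rose (0.22 ± 0.05), with a median of 0.18.

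Of 17 chondrocyte regulators 11 were tested. GSK126 on day 6 raised 4 and lowered 0 (median 0.30): Mef2c, a driver of hypertrophy, by 1.08 ± 0.31, Pth1r, the receptor that restrains it, by 1.03 ± 0.29, Runx3 by 0.46 ± 0.11 and Wwp2 by 0.22 ± 0.04. BMP2 raised 6 and lowered 2 (median 0.30), among them Mef2c (1.46 ± 0.34), Pth1r (1.42 ± 0.32), Foxc2 (1.00 ± 0.16) and Fgfr3 (0.83 ± 0.15). Several of these genes also act in osteoblasts. Of 14 hedgehog pathway genes 9 were tested; GSK126 raised 1, the coreceptor gene Boc (0.62 ± 0.10), and lowered 1, Gli3 (-0.60 ± 0.07), with a median of -0.15. BMP2 raised 4 and lowered 3 (median -0.02), with the target genes Gli1 at 1.42 ± 0.19 and Ptch1 at 0.80 ± 0.23, Boc at 0.82 ± 0.11 and Cdon at -0.71 ± 0.13. The ligand gene Ihh, as given above, did not pass.

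Of 17 genes of chondroitin sulphate synthesis and sulphation 14 were tested. GSK126 on day 6 raised Chst11, a chondroitin sulphotransferase gene, by 1.00 ± 0.20 and lowered Papss1 (-0.57 ± 0.11), with a median of 0.16. BMP2 raised 4 and lowered 2 (median 0.11), with Csgalnact1, whose enzyme starts the chondroitin chain, at -2.47 ± 0.18, Ugdh at 1.00 ± 0.14, Chst11 at 0.93 ± 0.22 and Papss2 at 0.87 ± 0.22. Of 9 genes of aggrecan degradation and its inhibitors 8 were tested. With GSK126 on day 6, 2 rose and 3 fell (median 0.01): the inhibitor gene Timp3 at 1.19 ± 0.09, and the protease genes Adamts1 at -1.09 ± 0.27, Adamts9 at 0.60 ± 0.16 and Adamts4 at -0.57 ± 0.08. With BMP2, 3 rose and 2 fell (median -0.11), led by Htra1 (-1.65 ± 0.21) and Adamts9 (1.56 ± 0.19), with Adamts4 at -0.62 ± 0.08 and Timp3 at 0.44 ± 0.10.

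**Figure D4:**
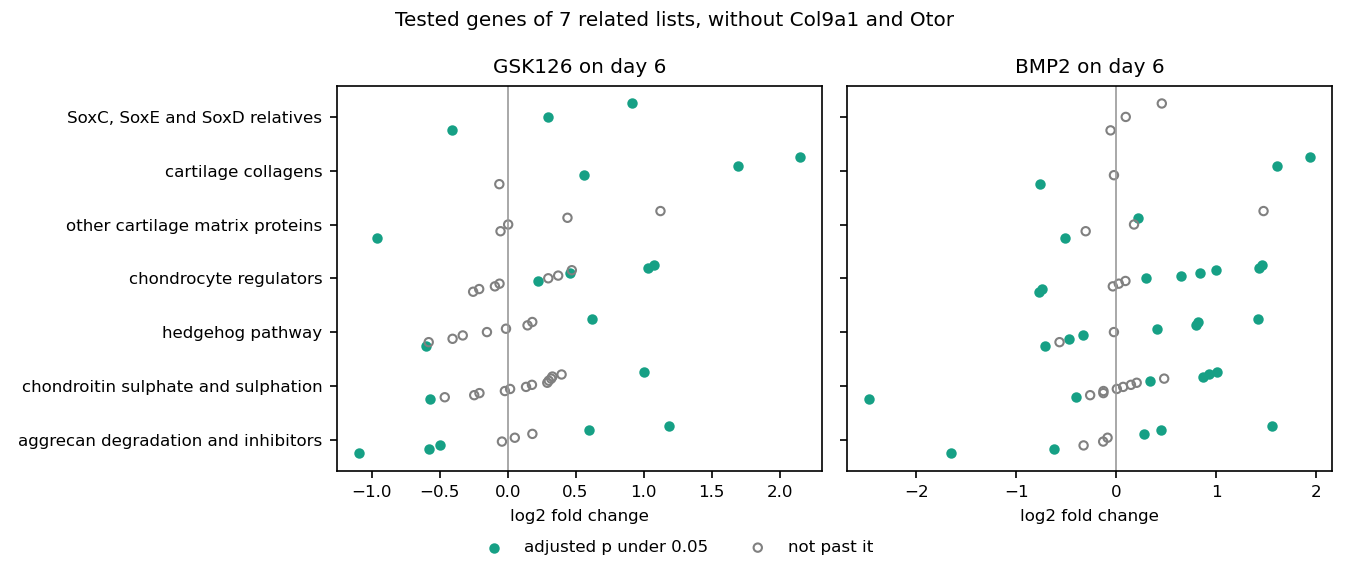
Log2 fold changes (horizontal) of the tested genes of 7 related lists for GSK126 and for BMP2 on day 6, filled where the adjusted p was under 0.05; Col9a1 and Otor are left out because they reached 1 CPM only in the libraries where they were high. Points past the threshold lie on both sides of 0 in most lists, and for GSK126 the collagens and chondrocyte regulators have them on the right only.

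For the 3 tested genes with the highest mean RPKM, the genes whose profile was most like theirs were found by Pearson correlation of log2 CPM over the 12 libraries after each day's mean was removed, among 9374 genes. Libraries share treatments, so these values are a description. Matn2 was most like Arsb (r = 0.99), App (0.99) and Fam105a (0.98). Sox9 was most like Hcfc2 (0.96), Edem3 (0.92) and Rab33b (0.92). Matn4 was most like Tm7sf2 (0.96), Lum (0.95), which encodes the matrix proteoglycan lumican, and Pmvk (0.95). Neither Matn2 nor Matn4 appeared in the list of the other. Each list holds only 3 genes, so this does not show that their profiles differ.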

How the data were processed

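RNA-seq libraries of MC3T3 sc4 cells were grouped by their titles, 1 per condition. The submitters' processing notes name mm10, bcl2fastq, TopHat2 2.0.6 and HTSeq. How strand was treated, how reads were counted and which annotation was used is not given in the sources used here. The authors deposited raw counts per gene and, beside them, RPKM (counts the authors divided by gene length and depth). RPKM was used for levels between genes, for sums of markers and for Col2a1, and is scaled to totals 1.23 to 1.30 times the gene sums. It lacks the TMM normalisation of the CPM values. Differences in RPKM between libraries or days were not tested and can depart from those in CPM. Sox9 on day 6 stood at 5.86 RPKM with 50 ng/ml BMP2 alone against 5.06 with vehicle, and at 38.9 against 26.6 CPM. All 195176 counts above 0 were even, so each mate seems to have been counted; read pairs are counts halved, and 95% Poisson intervals and floors cover counting error only. Counts were tested as deposited.

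Genes reaching 1 CPM in 2 or more libraries were normalised by TMM and tested with edgeR 4.0.16 in R 4.3.3 (quasi-likelihood, Benjamini-Hochberg). The fit held, within each day, terms for GSK126 and each BMP2 dose (8 coefficients, with 4 degrees of freedom left over). A further fit, for the interaction, crossed GSK126 with BMP2 at any dose within each day. Both were run on simulated counts in which 200 genes changed with GSK126 on day 6, alike at every BMP2 dose. No interaction and no BMP2 effect was simulated, so the power of the interaction fit was not tested. Alternatives were DESeq2 1.42.0, limma-voom (limma 3.58.1), library size scaling, a 0.1 CPM filter, no filter, halved counts, fits of 1 day alone, and each library left out. Whether the libraries came from separate cultures is not in the labels. Genes and lists were chosen with earlier results of these data known; up to 4 called genes per list and comparison are named, by size of log2 fold change, and Ihh under the lower filter and Matn1 were named after their values were seen. Positions are those of the deposited table. Promoters came from RefSeq, with the 50 bases after each start dropped.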

Additional observations from a re-analysis of the deposited data

Results flagged for a closer look

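There were 6 values that stand out because the effect of an agent differed between the 2 days in a test of that difference itself, with edgeR's quasi-likelihood test and adjustment over all genes. For GSK126, the log2 effect on day 6 minus that on day 1 was -0.67 for Matn4 (adjusted p = 0.045), -0.78 for Sox5 (adjusted p = 0.016) and -0.83 for Matn2 (adjusted p = 0.0062). All 3 genes were lower with GSK126 at 3 of 3 doses on day 6 and higher at 3 of 3 doses on day 1. The day 1 values did not pass in the main test, and that of Matn2 passed in a fit of day 1 alone. The 3 genes were picked by this difference in the same libraries, so their directions only describe the calls and add no support. The share of all genes with such directions was not counted. For BMP2 the same difference was -0.75 for Matn4 (adjusted p = 0.040), -0.80 for Sox5 (adjusted p = 0.020) and -0.96 for Matn2 (adjusted p = 0.0055), and all 3 genes were lower with BMP2 in 4 of 4 matched pairs on both days. The GSK126 difference of Matn2 held in 18 of 18 alternatives and the BMP2 one in 16 of 18, being lost without the vehicle or the GSK126 library of day 1 (adjusted p = 0.076 and 0.066; 1.0e-09 to 0.076 over all 18). The differences of Sox5 held in 12 of 18 alternatives for each agent, with adjusted p of 0.00078 to 0.090 for GSK126 and 0.0017 to 0.16 for BMP2, and those of Matn4 in 8 of 18. For Sox5 the libraries whose omission ended the GSK126 call were vehicle, GSK126 and both 10 ng/ml libraries of day 1 and both 10 ng/ml libraries of day 6; for BMP2 they were all libraries of day 1 except 50 ng/ml BMP2 with GSK126, and 10 ng/ml BMP2 with GSK126 of day 6.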

How the results depend on the processing

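In fits of day 6 alone, the number of the 7 genes called was 1 for GSK126, 3 for BMP2 and 0 for 50 against 10 ng/ml BMP2. In fits of day 1 alone, which did not test Comp as it reached 1 CPM in 1 library of day 1, it was 2 for GSK126, 3 for BMP2 and 2 for 50 against 10 ng/ml. Over all genes these fits called 956 and 2030 for GSK126 on days 6 and 1, 1038 and 4697 for BMP2, and 6 and 1180 for 50 against 10 ng/ml (3415, 0, 3463, 441, 1423 and 0 in the main test); the cause was not tested, and these fits also hold fewer libraries. DESeq2 called 2 of the 7 for BMP2 on day 1, and 912 of all genes; library size scaling called 2450 of all genes for 50 against 10 ng/ml on day 6. With each library left out in turn, the number of the 7 called was 7 in each case for day, 1 to 5 for GSK126 on day 6, 0 in each case for GSK126 on day 1, 3 to 6 for BMP2 on day 6, 0 to 2 for BMP2 on day 1, 0 to 4 and 0 for 50 against 10 ng/ml on days 6 and 1, 1 to 4 and 0 to 5 for the differences between days of GSK126 and BMP2, and 0 to 1 for the interaction. Over all genes the calls then ran from 1825 to 4252 for GSK126 and 2328 to 4846 for BMP2 on day 6, 1 to 1487 for BMP2 on day 1, 258 to 3023 for 50 against 10 ng/ml on day 6, and 342 to 2622 (GSK126; 1261 in the main test) and 104 to 2505 (BMP2; 1102) for the differences between days. For the BMP2 difference the lowest count came without the vehicle library of day 1 and the highest without 50 ng/ml BMP2 with GSK126 of day 6.

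Some values that had not passed changed sign. Sox9 with BMP2 on day 6 was 0.0062 with DESeq2, 0.0017 with the lower filter and -0.23 to 0.19 with a library left out. With library size scaling, Matn4 was -0.085 for 50 against 10 ng/ml on day 6, Sox6 -0.019 for the same doses on day 1, and Hapln1 -0.047 for the difference between days of BMP2, where limma-voom gave -0.13. Ranges with a library left out that spanned 0 were, for BMP2 on day 6, -0.30 to 0.18 for Comp; for 50 against 10 ng/ml on day 6, -0.11 to 0.22 for Matn4, -0.0039 to 0.83 for Sox9 and -0.17 to 1.502 for Hapln1; for those doses on day 1, -0.20 to 0.12 for Matn4, -0.33 to 0.00062 for Sox5 and -0.058 to 0.072 for Sox6; for the difference between days, -0.10 to 0.20 for Sox6 with GSK126, and -0.081 to 0.40 for Comp and -0.55 to 0.85 for Hapln1 with BMP2; and for the interaction, -0.27 to 0.43 for Sox5, -0.33 to 1.09 for Comp and -0.69 to 0.20 for Sox9. No call of the 7 genes changed sign. No paired analysis was possible because the labels give no replicate numbers and each condition has 1 library. Where 1 of 2 libraries at a dose was left out, the lone library is assumed to vary like the others.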
